A study of Mus musculus with 36 samples.

Results

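The genes described here encode the core machinery that makes and uses microRNAs. They are the 4 Argonaute genes Ago1, Ago2, Ago3 and Ago4, the 3 GW182 scaffold genes Tnrc6a, Tnrc6b and Tnrc6c, and the processing genes Dicer1, Drosha and Dgcr8. They were chosen by symbol, and all 10 were found in each of the 3 deposited count tables, among 25239 rows in the table of P-body and cytoplasm libraries, 25229 in the polysome table and 48440 in the Ago2 knockout (KO) table. Every one of the 10 passed the filter of 10 reads summed over the libraries of each comparison.

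MicroRNA hairpins are cut from primary transcripts in the nucleus by DROSHA with its partner DGCR8, and are trimmed in the cytoplasm by DICER1. The mature microRNA is loaded into an Argonaute protein, which finds messenger RNAs mainly through pairing with the seed, the bases near the 5′ end of the microRNA. GW182 proteins bind Argonaute and recruit deadenylation and decapping factors, and their proteins are long-known residents of P-bodies, cytoplasmic condensates of RNA and protein. The measurements below are of the mRNAs of these genes, not of their proteins.

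The study sequenced 36 mouse libraries in 16 groups. P-bodies were sorted as fluorescent particles of GFP-tagged LSM14A and compared with cytoplasm set aside before sorting. By the paper's methods that cytoplasm was a resuspended pellet from the lysate, and P-bodies had not been removed from it. Naive ES cells grown in 2i and LIF, primed ES cells grown with activin and bFGF, mouse embryonic fibroblasts (MEFs), and reprogrammable MEFs harvested on day 3, which had received either a control hairpin or one against Nudt21, each gave 2 P-body and 2 cytoplasm libraries. Both day 3 groups carried a doxycycline-inducible cassette of the 4 reprogramming factors. They were induced for 3 days in medium with doxycycline, LIF and ascorbic acid, whereas the paper describes the MEF group as uninduced. NUDT21 is a subunit of a complex that favors distal polyadenylation sites. Ago2 KO ES cells, which the paper describes as naive, are a line made from single cells after a paired CRISPR deletion of exon 1. They gave 2 libraries of each fraction. Polysomes and total RNA made up the other 12 libraries, 3 of each kind per condition, from naive ES cells of a degron line, 1 clone, in which the dTAG-13 compound removes the DDX6 protein, with and without that treatment. That line carries the degron tag on DDX6 in both conditions, so untreated cells of the same line are the control. Treated cells were harvested hours, not days, after the compound was added, so the loss of DDX6 was acute. Unedited ES cells matched to the Ago2 KO were not analysed here.

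Library totals ran from 6769727 to 31185799 reads for the 20 P-body and cytoplasm libraries, from 13308776 to 29362187 for the 12 polysome and total libraries, and from 15624342 to 17486206 for the 4 Ago2 KO libraries. The unit of level is CPM, a gene's reads scaled to a common library size by the TMM method, and it is comparable within a table only. Nudt21 stood at 88.9 and 91.8 CPM in the day 3 control cytoplasm and at 5.68 and 4.87 CPM after its knockdown. Markers matched the labelled cells, with 6 pluripotency genes summing to between 2240 and 2690 CPM of the library total in naive ES libraries to no more than 1.48 CPM in MEFs, to between 1650 and 1770 CPM in the Ago2 KO and to between 4140 and 4760 CPM in the degron line. Nuclear transcripts (Malat1, Neat1 and Kcnq1ot1) summed to between 4630 and 6640 CPM in MEF P-bodies against 940 to 1010 CPM in MEF cytoplasm, and lung epithelial markers to between 5.77 and 86.6 CPM against 0. The part of either in the MEF results below was not tested. Naive ES P-bodies held 504 to 528 CPM of the nuclear list and their cytoplasm 177 to 265 CPM, and its part there was not tested either.

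Most of the genes have long transcripts. In GENCODE M21 (GRCm38, the mm10 assembly), the longest coding transcript ran from 4320 bases for Dgcr8 to 17332 bases for Tnrc6b, against a median of 2681 bases over 21877 coding genes. The 3′ untranslated regions (3′ UTRs) spanned 11064 bases in Ago2, 12742 in Ago3 and 11609 in Tnrc6b, but only 168 in Drosha, with a median of 938 over all genes that have one. Ago3, Ago1 and Ago4 lie next to each other on the minus strand at chr4:126331704-126429556, chr4:126435012-126468583 and chr4:126489541-126533472. Ago2 lies at chr15:73095844-73184935 on the minus strand, and 219 bases of its exons overlap Chrac1 on the other strand. Dgcr8, at chr16:18253948-18289246, overlaps Trmt2a on the other strand over 825 bases. How the counting treated strand was not given in the sources used here, so reads from those stretches cannot be told apart.

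Mean levels divided by transcript length put the genes in an order in naive cytoplasm, in which neighbours with overlapping libraries cannot be ranked. The lengths are from GENCODE, whereas the reads were counted on RefSeq exons. The RefSeq gene stops short of the GENCODE 3′ end for Ago2 (base 73101625 against 73095844) and runs past it for Ago3 (126326994 against 126331704). For Tnrc6a the RefSeq gene starts upstream of the GENCODE start (base 123031101 against 123123885). The values per kilobase of Ago2, Ago3 and Tnrc6a, and their places beside genes with near values, are uncertain for that reason. Drosha stood at 43.5 CPM per kilobase and Dgcr8 at 13.9, the 2 highest of the 10, while Dicer1, which encodes the cytoplasmic enzyme, stood at 8.12. Ago2 was the leading Argonaute with 5.43 CPM per kilobase, ahead of Ago1 at 1.72, Ago3 at 0.425 and Ago4 at 0.32. Among the scaffolds Tnrc6c stood at 6.19 and Tnrc6a at 4.99, with a wide spread between the Tnrc6a libraries (30 and 51.6 CPM), and Tnrc6b was the lowest at 1.07. MEF cytoplasm had another order, with Tnrc6a at 18.8 CPM per kilobase, Dgcr8 at 18.7 and Drosha at 16.9 on top and Ago2 again the highest Argonaute at 6.67. In total RNA of the degron line, whose table was made separately, Ago1 stood at 19.1 CPM per kilobase against 10.6 for Ago2 in control cells. After DDX6 loss the values were 18.1 and 9.42. Before division by length the genes overlapped, at 144, 142 and 130 CPM for Ago1 and 157, 142 and 138 CPM for Ago2 in control cells. They overlapped after DDX6 loss too, at 123, 131 and 140 CPM and at 129, 129 and 134 CPM. The order of the pair thus rests on the length taken for Ago2.

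**Figure D1:**
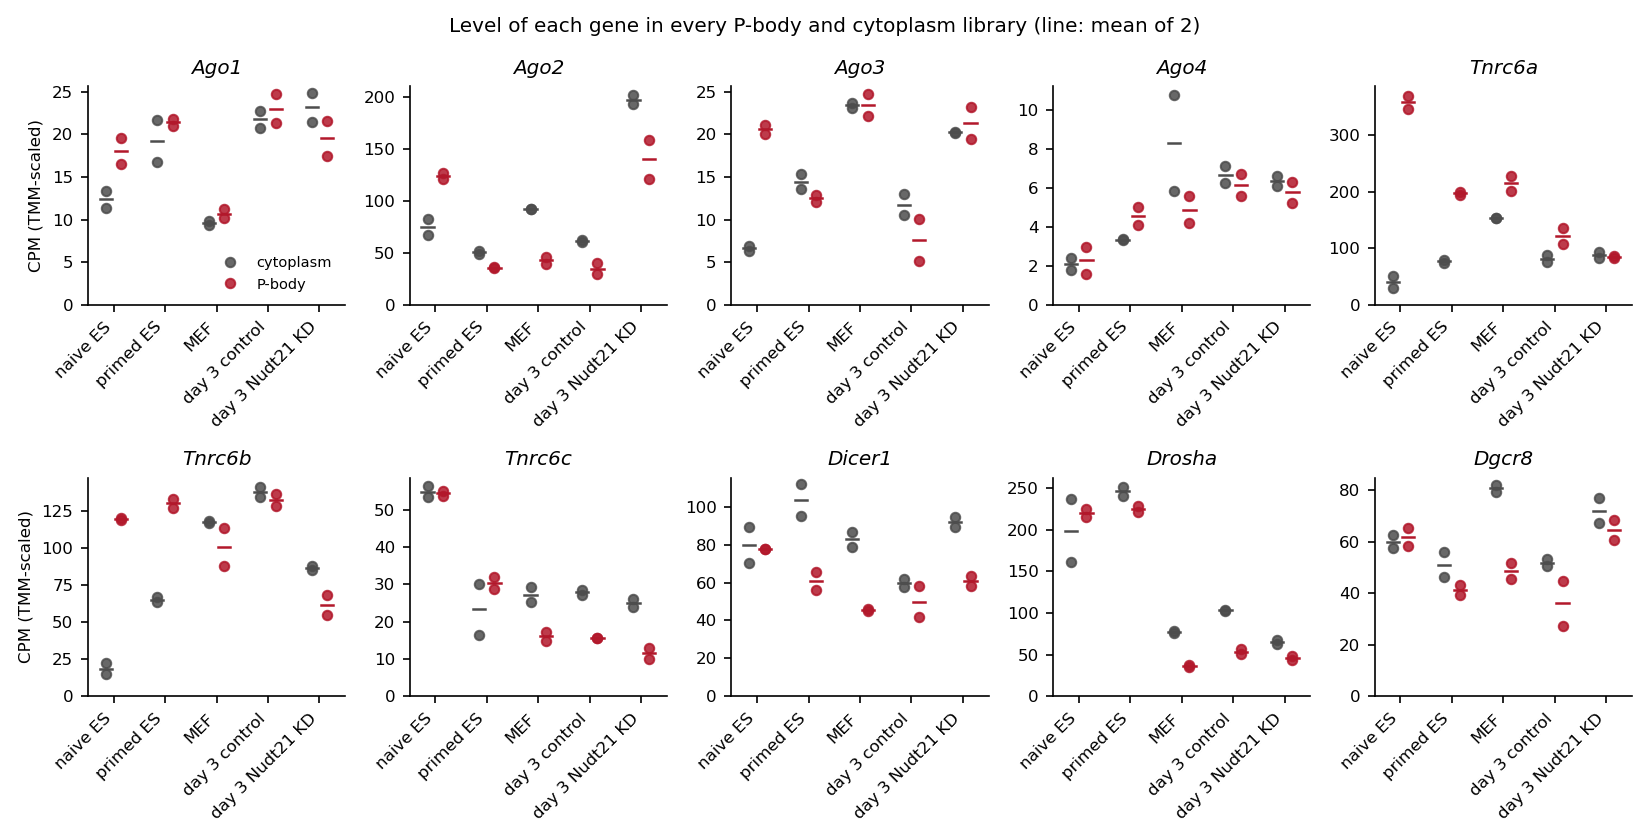
CPM (linear axis from 0, TMM-scaled) of each of the 10 genes in every P-body and cytoplasm library of the table with 5 cell kinds, 2 libraries a group, with a line at the mean. Tnrc6a stands at 370 and 346 CPM in naive P-bodies against 30 and 51.6 CPM in naive cytoplasm, and Ago2 reaches 193 and 202 CPM in the cytoplasm of the Nudt21 knockdown.

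The P-body comparison asked which of these mRNAs were held in P-bodies in each cell type. Naive ES cells had 4 of the 10 genes higher in P-bodies and none lower, where 22.6% of all genes tested were called higher and 15.4% lower. Primed ES cells had 2 higher (26.5% of all genes) and 4 lower (24.2%), and MEFs had 1 higher (26.6%) and 5 lower (28.7%). Day 3 control cells had none higher (0.196%) and 1 lower (0.45%), a count that was 0 without either cytoplasm library, 7 without replicate 1 of the P-bodies, 4 without replicate 2, and 4 by DESeq2. The day 3 Nudt21 knockdown cells had none higher (9.04%) and 5 lower (12.8%), with 3 and 2 lower when replicate 1 or replicate 2 of their cytoplasm was left out. Ago2 KO cells had 1 higher (5.47%) and none lower (1.05%). Over all genes of the KO, 919 were higher and 176 lower, and with DESeq2 size factors 670 and 46. Among the 10 the KO count was 6 without replicate 1 of its cytoplasm and 3 without replicate 2. A gene was called at an adjusted p under 0.05 in edgeR's quasi-likelihood test. The median log2 fold change of the 10 was 0.34 in naive ES cells, -0.0075 in primed ES cells and -0.70 in MEFs, against -0.059, 0.00063 and 0.031 over all genes. It was -0.36 in the day 3 control, -0.38 in the Nudt21 knockdown and -0.49 in the Ago2 KO. The medians over all genes there were -0.0078, 0.0025 and 0.041. Of the 6 cell kinds the lowest median lay in MEFs and the highest in naive ES cells.

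**Figure D2:**
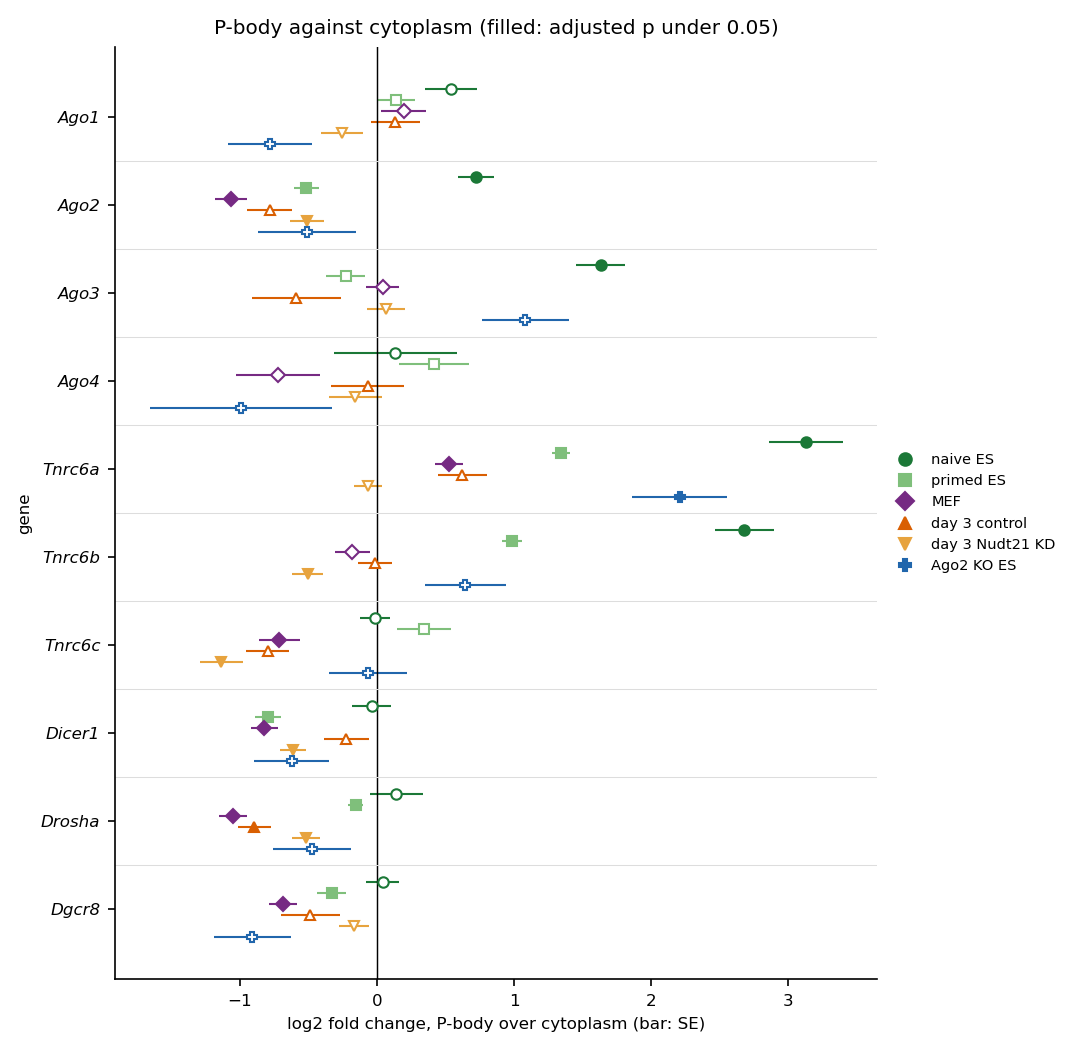
Log2 fold change of P-body over cytoplasm (horizontal axis, bars are standard errors) for each gene (vertical axis) in 6 cell kinds, with filled symbols for an adjusted p under 0.05. Tnrc6a lies farthest to the right, at 3.13 in naive ES cells, and Dicer1 lies at or left of 0 in all 6.

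Of the scaffold genes, Tnrc6a was the most P-body-enriched. Its naive P-body libraries held 370 and 346 CPM and its naive cytoplasm libraries 30 and 51.6 CPM. The groups were far apart, although the cytoplasm pair differed from each other more than the P-body pair. The difference was 8.76-fold, or 3.13 ± 0.27 on the log2 scale (SE, n = 2 and 2, adjusted p = 0.00090). Primed ES cells held 194 and 200 CPM in P-bodies and 74.4 and 78.6 CPM in cytoplasm, a log2 difference of 1.35 ± 0.066 (adjusted p = 6.9e-09). MEF P-bodies held 201 and 228 CPM against 154 and 154 CPM in cytoplasm, a smaller difference of 0.52 ± 0.10 (adjusted p = 0.0017). No overlap between fractions was seen in any of these cell types. Tnrc6a did not pass the test in the day 3 control (0.62 ± 0.18, adjusted p = 0.12), where DESeq2 called it (adjusted p = 0.013). In the Nudt21 knockdown its log2 difference was -0.067 ± 0.10 (adjusted p = 0.70), with 83.2 and 86.9 CPM in P-bodies and an overlapping 83.4 and 92.8 CPM in cytoplasm.

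Tnrc6b shared the enrichment in both ES cell states but not in fibroblasts. Naive P-bodies held 120 and 119 CPM and naive cytoplasm 14.7 and 22.4 CPM, a 6.42-fold difference (log2 2.68 ± 0.22, adjusted p = 0.00078). In primed ES cells the values were 127 and 133 CPM in P-bodies and 66.7 and 63.2 CPM in cytoplasm (0.98 ± 0.073, adjusted p = 2.6e-07). The P-body values of the naive and primed states were close, and the cytoplasm of naive cells stood below that of primed cells. MEF P-bodies, at 88 and 113 CPM, and MEF cytoplasm, at 117 and 118 CPM, differed by -0.18 ± 0.13 (adjusted p = 0.27). After Nudt21 knockdown Tnrc6b was lower in P-bodies, at 54.9 and 67.9 CPM against 87.7 and 84.9 CPM (-0.51 ± 0.11, adjusted p = 0.012). That call was lost without either cytoplasm library of the knockdown, with adjusted p of 0.079 and 0.086 and the size at -0.51 in both cases.

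Tnrc6c, the remaining GW182 gene, was not called higher in P-bodies of any cell kind, although without replicate 2 of the primed cytoplasm it was in primed ES cells (0.86, adjusted p = 5.9e-05). Its naive libraries held 53.7 and 55 CPM in P-bodies and 53.4 and 56.3 CPM in cytoplasm, with complete overlap. MEF P-bodies held 14.8 and 17.3 CPM against 25.2 and 29.2 CPM (-0.71 ± 0.15, adjusted p = 0.0028), a call that was lost without replicate 2 of the MEF cytoplasm (-0.58, adjusted p = 0.085). In the Nudt21 knockdown the P-body values of 9.95 and 13 CPM lay below 26 and 24 CPM in cytoplasm (-1.14 ± 0.16, adjusted p = 0.0011). The GW182 genes ranged in naive cells from a log2 difference of -0.012 for Tnrc6c to 3.13 for Tnrc6a.

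Ago2, the Argonaute whose protein can slice its targets, was higher in naive P-bodies and lower in those of 3 other cell kinds. Naive P-bodies held 127 and 121 CPM and naive cytoplasm 67.3 and 82.6 CPM, without overlap (0.72 ± 0.13, adjusted p = 0.011). Leaving out either naive P-body library took the call away at nearly the same size (0.69 with adjusted p = 0.12, and 0.76 with adjusted p = 0.092). Primed P-bodies held 36.1 and 35.4 CPM against 48.8 and 52 CPM (-0.52 ± 0.091, adjusted p = 0.00043), and MEF P-bodies 38.9 and 46.3 CPM against 92.1 and 92 CPM (-1.07 ± 0.12, adjusted p = 6.2e-05). Primed ES cells and MEFs thus had the cytoplasm as the higher fraction. Day 3 control cells held 40.3 and 29.2 CPM against 62.7 and 60.2 CPM (-0.78 ± 0.16, adjusted p = 0.073), which DESeq2 called (adjusted p = 0.0030). The knockdown cells held 121 and 159 CPM against 193 and 202 CPM (-0.51 ± 0.12, adjusted p = 0.016), a call lost without replicate 2 of their cytoplasm (-0.46, adjusted p = 0.12).

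Ago3 was the other Argonaute gene called in a P-body comparison, and only in naive ES cells. Its values there were 21.1 and 20.1 CPM in P-bodies and 6.36 and 6.91 CPM in cytoplasm, a 3.1-fold difference with no overlap (1.63 ± 0.18, adjusted p = 0.0020). In MEFs the fractions overlapped at 24.7 and 22.2 CPM and 23.7 and 23.1 CPM. Ago1 and Ago4 were called in none of the 6 cell kinds. Ago1 was at 19.6 and 16.5 CPM in naive P-bodies and 13.3 and 11.4 CPM in naive cytoplasm (0.54 ± 0.19, adjusted p = 0.077), which passed when all groups of the table shared a fit (adjusted p = 0.029) and without either naive cytoplasm library (0.65 and 0.44, adjusted p = 0.00025 and 0.014). Ago4, which lies beside it on chromosome 4, stood between 1.59 and 10.8 CPM in the 20 libraries. Its difference in MEFs (-0.72 ± 0.31) missed the threshold (adjusted p = 0.074). That difference passed in edgeR with no filter, with all groups in a shared fit and with a term for replicate number (adjusted p = 0.042, 0.048 and 0.015). Its size was -0.96 without replicate 2 of the P-bodies and -1.08 without replicate 1 of the cytoplasm.

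The long 3′ UTRs of these genes are themselves possible microRNA targets, so matches to 2 seeds were read from the annotation. The let-7 family is abundant in differentiated cells and low in ES cells, whereas miR-294 belongs to a family that dominates ES cells. The mature sequences (RefSeq, GRCm38.p6, let-7a at chr13:48538239-48538260 on the minus strand and miR-294 at chr7:3220691-3220712 on the plus strand) are shown with seed bases 2 to 8 in capitals.
let-7a-5p: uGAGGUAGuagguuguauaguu
miR-294-3p: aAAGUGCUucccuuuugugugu

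A match was defined as the 7 bases complementary to the seed, CTACCTC for let-7 and AGCACTT for miR-294, on the transcript strand of the 3′ UTR only. Ago2 held 3 let-7 matches, and Ago3 held 1 let-7 match and 3 miR-294 matches. Tnrc6b held 2 miR-294 matches, Tnrc6c held 1, and the other 6 genes held neither motif. One site of each kind is shown with its match in capitals, from genes whose P-body enrichment was high in naive cells, and for Ago2 all 3 are given because 2 of them lie past the end of the RefSeq gene.
Ago2 site 1, chr15:73101722-73101743, minus strand: gatgcataaaagCTACCTCtga
Ago2 site 2, chr15:73100038-73100059, minus strand: gtggcctctgtcCTACCTCcag
Ago2 site 3, chr15:73097980-73098001, minus strand: tacaatgtggatCTACCTCagt
Ago3 miR-294 site 1, chr4:126341689-126341710, minus strand: acaggcggtgtgAGCACTTgga
Tnrc6b miR-294 site 1, chr15:80931316-80931337, plus strand: ggggaacatgctAGCACTTgtg

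The motifs are common in UTRs of this length. Among all 20945 3′ UTRs, 8.85% held the let-7 match and 14.5% the miR-294 match, but among those near the length of the Ago2 UTR the let-7 share was 46.1%, and among those near the length of the Tnrc6b UTR the miR-294 share was 77.6%. Tnrc6a, with the largest enrichment in naive P-bodies, held neither match in its 2345-base UTR, where 14% and 25.3% of UTRs of like length held one. Ago2 sites 2 and 3 lie beyond base 73101625, where the RefSeq gene ends, so reads from that stretch may not have been counted with RefSeq exons. A match is a string of letters in the annotated transcript, and binding was not measured in the libraries used here.

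Each of the 3 processing genes was called lower in P-bodies of primed ES cells and of MEFs. In the same edgeR test none of them was called in naive ES cells or in the Ago2 KO, which depended on single cytoplasm libraries. Without replicate 1 of the naive cytoplasm Drosha stood at 0.44, and without replicate 2 Dicer1 stood at -0.18. Without replicate 1 of the KO cytoplasm Dicer1 stood at -0.99, Drosha at -0.89 and Dgcr8 at -1.16. Dicer1 was at 77.8 and 78 CPM in naive P-bodies and at 89.4 and 70.6 CPM in naive cytoplasm, where the fractions overlapped. It was lower in P-bodies of primed ES cells, at 56 and 65.4 CPM against 95.3 and 112 CPM (-0.80 ± 0.098, adjusted p = 2.2e-05), and of MEFs, at 45.9 and 45.1 CPM against 79 and 86.6 CPM (-0.82 ± 0.10, adjusted p = 0.00012). The primed and MEF differences were of similar size and held under every alternative run. Nudt21 knockdown cells gave 58.4 and 63.3 CPM against 94.9 and 89.4 CPM (-0.61 ± 0.097, adjusted p = 0.0022). Dicer1 was not called in the day 3 control (-0.22 ± 0.17, adjusted p = 0.45) or the Ago2 KO (-0.62 ± 0.27, adjusted p = 0.21).

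Drosha, the nuclear RNase, was lower in P-bodies of 4 cell kinds. MEF P-bodies held 34.9 and 37.2 CPM against 78.2 and 76.2 CPM in cytoplasm (-1.05 ± 0.10, adjusted p = 3.1e-05), and day 3 control P-bodies 56.7 and 50.7 CPM against 104 and 102 CPM (-0.90 ± 0.12, adjusted p = 0.0495). The day 3 call was lost without either of its cytoplasm libraries, with adjusted p of 0.15 and 0.17 and sizes of -0.89 and -0.90. Knockdown cells held 44 and 48.2 CPM against 67.6 and 63.1 CPM (-0.52 ± 0.10, adjusted p = 0.0073), a call lost without either cytoplasm library of that group (adjusted p = 0.083 and 0.061). In primed ES cells the difference was small, 221 and 228 CPM against 241 and 252 CPM (-0.15 ± 0.055, adjusted p = 0.033), and DESeq2 did not call it (adjusted p = 0.081), nor did 3 of the 4 fits that left out a library (adjusted p up to 0.24). Naive fractions overlapped, at 215 and 225 CPM in P-bodies and 237 and 161 CPM in cytoplasm (0.14 ± 0.19, adjusted p = 0.60). In the Ago2 KO Drosha was not called (-0.47 ± 0.28, adjusted p = 0.34). Among the 20 libraries counted together, Drosha levels were higher in naive and primed ES cells than in any fibroblast group. The KO ES libraries, counted separately, held 47.9 and 56.9 CPM in P-bodies and 56.2 and 89.5 CPM in cytoplasm.

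Dgcr8, which encodes the RNA-binding partner of DROSHA, was lower in P-bodies of 2 cell kinds. MEF P-bodies held 51.8 and 45.7 CPM against 82.2 and 79.2 CPM (-0.69 ± 0.10, adjusted p = 0.00034), without overlap. The primed values of 39.2 and 43.1 CPM lay below 56.1 and 46.2 CPM in cytoplasm (-0.33 ± 0.11, adjusted p = 0.021). DESeq2 left the primed difference uncalled (adjusted p = 0.054), as did the fit over all groups (adjusted p = 0.23) and fits without replicate 1 of the P-bodies (adjusted p = 0.14) or of the cytoplasm (adjusted p = 0.15). Naive fractions, at 65.5 and 58.2 CPM and at 62.5 and 57.6 CPM, overlapped. Dgcr8 was not called in the day 3 control (-0.49 ± 0.21, adjusted p = 0.22), the Nudt21 knockdown (-0.17 ± 0.11, adjusted p = 0.31) or the Ago2 KO (-0.91 ± 0.28, adjusted p = 0.091).

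Whether enrichment differed between cell types was tested with interaction terms. Naive ES cells exceeded primed ES cells in 5 of the 10 genes and fell below them in none. Of all 17199 genes tested, 25.3% were called in either direction, with 2389 greater and 1960 smaller in naive cells. The differences in log2 enrichment were 1.72 ± 0.22 for Ago3 (adjusted p = 0.00097), 1.64 ± 0.28 for Tnrc6a (adjusted p = 0.0033), 1.56 ± 0.23 for Tnrc6b (adjusted p = 0.0017), 1.1 ± 0.16 for Ago2 (adjusted p = 0.0018) and 0.62 ± 0.19 for Dicer1 (adjusted p = 0.046). The Dicer1 call was lost in 4 of the 8 fits that left out a library (both naive P-body libraries, replicate 1 of the primed P-bodies and replicate 2 of the primed cytoplasm), with adjusted p between 0.099 and 0.16 and sizes between 0.50 and 0.63. Naive ES cells exceeded MEFs in 7 of the 10 and fell below them in none. Of all 18143 genes tested, 41.3% were called in either direction, with 3895 greater and 3598 smaller in naive cells. Tnrc6b led at 2.67 ± 0.27 (adjusted p = 5.2e-05), followed by Tnrc6a at 2.41 ± 0.30 (adjusted p = 0.00015) and Ago2 at 1.6 ± 0.20 (adjusted p = 0.00015). Both comparisons share the naive libraries, so they are not independent of each other.

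The same 7 included Ago3 at 1.40 ± 0.21 (adjusted p = 0.00056), Drosha at 1.01 ± 0.22 (adjusted p = 0.0051), Dicer1 at 0.60 ± 0.18 (adjusted p = 0.022) and Dgcr8 at 0.54 ± 0.16 (adjusted p = 0.021). Without replicate 1 of the naive P-bodies Dgcr8 fell to 0.46 (adjusted p = 0.10), and without either naive P-body library Dicer1 was not called (adjusted p = 0.075 and 0.084). The all-gene median of this interaction was -0.17. None of the 10 was called between day 3 control cells and MEFs, where 14.7% of all genes were, and the largest departure by test was Dicer1 at 0.64 ± 0.20 (adjusted p = 0.052). DESeq2 called that difference (adjusted p = 0.026), and Dicer1 was the 1 gene of the 10 at an unadjusted p under 0.05. Without replicate 1 of the day 3 P-bodies Ago3 was called (-1.17, adjusted p = 0.0058), and without replicate 2 Dicer1 (0.78, adjusted p = 0.0019) and Dgcr8 (0.48, adjusted p = 0.029). Between the Nudt21 knockdown and the day 3 control none of the 10 was called, with 0.0118% of all genes called, 3 of the 10 at an unadjusted p under 0.05, and 0 of the 10 called by DESeq2. That comparison turned on replicate 1 of the control P-bodies, without which 4 of the 10 were called, Ago3 (1.19, adjusted p = 0.011) and Dgcr8 (0.69, adjusted p = 0.018) higher in the knockdown and Tnrc6a (-0.86, adjusted p = 0.0044) and Tnrc6b (-0.56, adjusted p = 0.032) lower.

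The Ago2 KO line asked what P-bodies hold when this Argonaute is missing. Ago2 itself was at 3.68 and 2.54 CPM in KO P-bodies and at 4.03 and 4.83 CPM in KO cytoplasm, from 45 to 73 reads a library. The deletion removed exon 1 and the counts cover the whole gene, so reads from other exons would not check the deletion. Tnrc6a remained far higher in P-bodies, at 347 and 428 CPM against 106 and 60.9 CPM (2.21 ± 0.35, adjusted p = 0.0072), with the fractions well separated. It held under every alternative run, from 1.83 to 2.55 on the log2 scale.

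Ago3 and Tnrc6b of the KO line missed the threshold. Ago3 stood at 22.6 and 24.9 CPM against 7.82 and 14.6 CPM (1.08 ± 0.32, adjusted p = 0.080). Tnrc6b stood at 37.3 and 42.4 CPM against 18.7 and 32.3 CPM (0.65 ± 0.29, adjusted p = 0.22). An edgeR fit that took equal replicate numbers as pairs called both higher (1.14 and 0.69, adjusted p = 4.0e-05 and 0.011). That fit also called Ago1, Dicer1 and Dgcr8 lower, and no label says that the numbers mark pairs. The KO cytoplasm libraries differed from each other, and Ago3 was called without either of them (0.59 with adjusted p = 0.039, and 1.57 with adjusted p = 0.0015). Summed nuclear transcripts were 161 to 474 CPM in KO cytoplasm and 608 to 645 CPM in KO P-bodies, and their part was not tested. The KO and naive tables were made with different annotations and pipelines, so the difference between the lines was not tested.

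Levels were also compared between the cytoplasmic fractions of the cell kinds, which are pelleted material and not whole-cell RNA. The counts among the 10 are to be read against the large share of all genes called. In such bulk samples, fewer cells of a type and less RNA per cell cannot be told apart. Naive and primed ES cells differed in 5 of 10 genes (43.8% of all genes). Ago2 was higher in naive cells, at 67.3 and 82.6 against 48.8 and 52 CPM (0.56 ± 0.15, adjusted p = 0.029), as was Tnrc6c, at 53.4 and 56.3 against 16.3 and 30.2 CPM (1.22 ± 0.28, adjusted p = 0.017). Tnrc6b was lower in naive cells, at 14.7 and 22.4 against 66.7 and 63.2 CPM (-1.82 ± 0.23, adjusted p = 0.0022), and so were Ago3 (-1.14 ± 0.23, adjusted p = 0.010) and Tnrc6a (-0.92 ± 0.26, adjusted p = 0.032). The 3 genes most enriched in naive P-bodies were thus the 3 that were lower in naive cytoplasm, and the cytoplasm libraries are shared by both comparisons. Leaving out replicate 1 of the primed cytoplasm kept only Tnrc6b, and leaving out replicate 2 kept Tnrc6b and Tnrc6c, with adjusted p of 0.080 to 0.22 for the others. Leaving out replicate 1 of the naive cytoplasm gave 8 called, adding Ago1 (-0.76), Dicer1 (-0.57) and Drosha (-0.63), all lower in naive cells.

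Naive ES cells and MEFs differed in 7 of 10 genes (71.8% of all genes). Tnrc6b was lower in naive cells (-2.66 ± 0.22, adjusted p = 0.00028), as were Ago4 (-1.99 ± 0.41, adjusted p = 0.0078), Tnrc6a (-1.91 ± 0.26, adjusted p = 0.0017), Ago3 (-1.82 ± 0.17, adjusted p = 0.00045) and Dgcr8 (-0.43 ± 0.11, adjusted p = 0.017). Drosha, at 237 and 161 against 78.2 and 76.2 CPM, was higher in naive cells (1.37 ± 0.20, adjusted p = 0.0021), as was Tnrc6c (1.01 ± 0.14, adjusted p = 0.0016). The Ago4 call was lost without replicate 2 of the MEF cytoplasm (-1.48, adjusted p = 0.065) and the Dgcr8 call without either MEF library (adjusted p = 0.18 and 0.14).

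**Figure D3:**
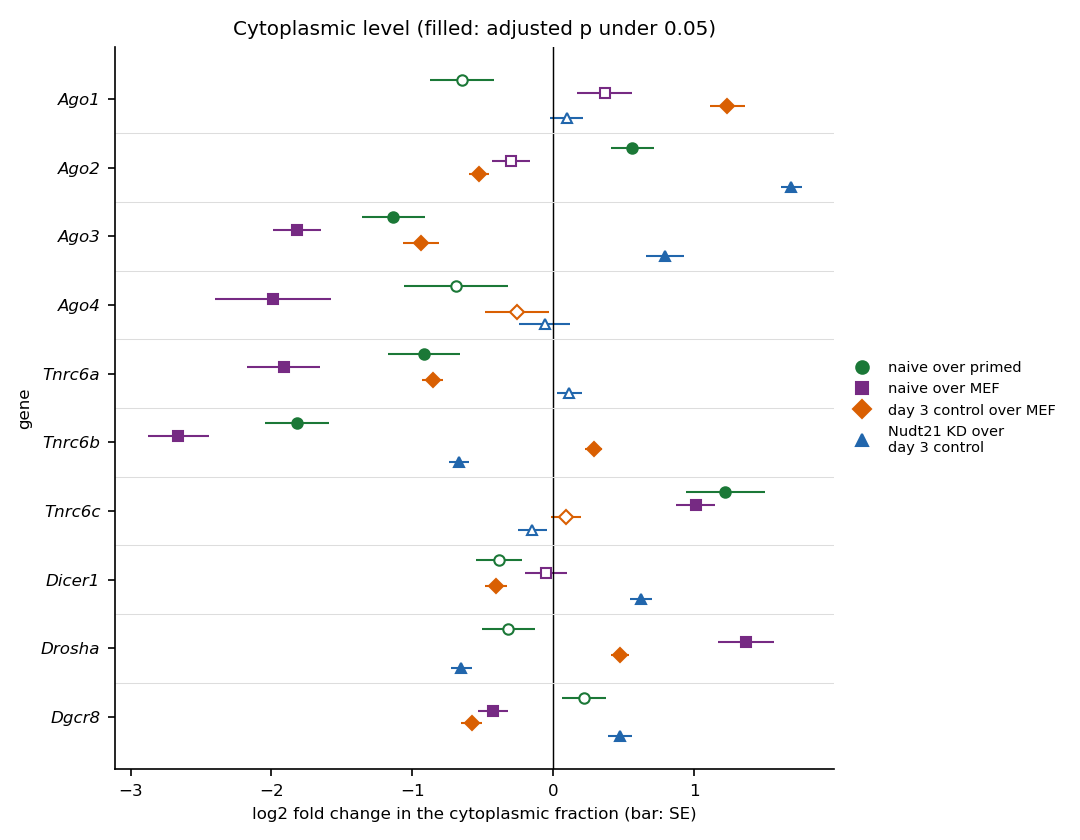
Log2 fold change of each gene between cytoplasmic fractions (horizontal axis, bars are standard errors, filled symbols for an adjusted p under 0.05) in 4 comparisons of cell kinds. Ago2 after Nudt21 knockdown lies at 1.69, and Tnrc6b lies at -2.66 in naive ES cells against MEFs.

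Day 3 control cells differed from MEFs in 8 of the 10 in the cytoplasm (69.3% of all genes). Ago1 rose from 9.38 and 9.85 CPM to 22.7 and 20.8 CPM (1.24 ± 0.12, adjusted p = 2.4e-07), and Drosha and Tnrc6b rose by 0.47 ± 0.067 and 0.29 ± 0.063. Tnrc6a fell from 154 and 154 CPM to 87.5 and 75.7 CPM (-0.86 ± 0.073, adjusted p = 3.5e-08), and Ago2 from 92.1 and 92 CPM to 62.7 and 60.2 CPM (-0.53 ± 0.070, adjusted p = 5.6e-06). Ago3 (-0.94 ± 0.13), Dicer1 (-0.41 ± 0.077) and Dgcr8 (-0.58 ± 0.074) fell as well. In these comparisons the pluripotency genes summed to 324 to 333 CPM in day 3 control cytoplasm and at most 1.48 CPM in MEF cytoplasm, and fibroblast genes to 4570 to 4640 CPM against 23000 to 25300 CPM. The Tnrc6b rise was not called when all groups of the table shared a fit (0.23, adjusted p = 0.23).

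Nudt21 knockdown at day 3 changed 6 of 10 genes in the cytoplasm (49.6% of all genes), with Ago2 the most. Its level was 62.7 and 60.2 CPM in control cytoplasm and 193 and 202 CPM in knockdown cytoplasm, a 3.23-fold rise (1.69 ± 0.072, adjusted p = 8.4e-12). The groups did not overlap, and in P-bodies the same gene stood at 40.3 and 29.2 CPM in the control and 121 and 159 CPM in the knockdown, so both fractions were high. Its transcript has a 3′ UTR of 11064 bases, longer than 99.8% of those annotated. The RefSeq gene stops short of that 3′ end (base 73101625 against 73095844), so reads from the distal stretch may not have been counted. The part of a shift between polyadenylation sites in the counted rise was not tested. Ago3, with a 3′ UTR of 12742 bases, rose by 0.79 ± 0.13 (adjusted p = 9.8e-05), Dicer1 by 0.62 ± 0.077 (adjusted p = 3.2e-06) and Dgcr8 by 0.48 ± 0.084 (adjusted p = 0.00015). Tnrc6b, with a 3′ UTR of 11609 bases, fell by 0.67 ± 0.070 (adjusted p = 4.7e-07), and Drosha, with one of 168 bases, fell by 0.65 ± 0.074 (adjusted p = 1.2e-06). Rises and falls both occurred among the longest UTRs. The fibroblast markers were lower in the knockdown, at 1520 to 1550 against 4570 to 4640 CPM, and pluripotency markers higher, at 714 to 826 against 324 to 333 CPM, and their part in these differences was not tested.

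The polysome comparison set each mRNA in the pooled ribosome-containing fractions against total RNA, a ratio the paper calls ribosome occupancy. It is relative to the other genes and does not count the ribosomes on an mRNA. In control cells 1 of 10 was higher in polysomes (18.8% of all genes) and 6 were lower (24.1%), and in DDX6-degraded cells 2 were higher (24%) and 6 lower (26.8%). Tnrc6b had the lowest polysome share of the 10. It was at 40.2, 38.7 and 33.8 CPM in control total RNA and at 16.7, 16.3 and 16.5 CPM in control polysomes (-1.19 ± 0.082, n = 3 and 3, adjusted p = 4.0e-09), and at 28.9, 31.5 and 32.8 CPM and 15.5, 18 and 18.3 CPM after DDX6 loss (-0.85 ± 0.072, adjusted p = 8.0e-10). No polysome library reached any total library. Tnrc6a, by contrast, was alike in the fractions, at 110, 103 and 96.6 CPM in control total RNA and 96.7, 99.1 and 96.6 CPM in polysomes (-0.084 ± 0.064, adjusted p = 0.32).

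The processing genes were all lower in polysomes. Dicer1 was at 115, 118 and 101 CPM in control total RNA and at 58.2, 59.7 and 60.7 CPM in control polysomes (-0.91 ± 0.070, adjusted p = 1.6e-08). Drosha was at 281, 291 and 257 CPM and at 181, 177 and 167 CPM (-0.66 ± 0.064, adjusted p = 3.0e-07), and Dgcr8 at 105, 101 and 98.2 CPM and at 81.3, 79.4 and 78.9 CPM (-0.35 ± 0.061, adjusted p = 0.00019). These groups did not overlap. DDX6-degraded cells gave -0.75 ± 0.050 for Dicer1, -0.68 ± 0.048 for Drosha and -0.36 ± 0.048 for Dgcr8.

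**Figure D4:**
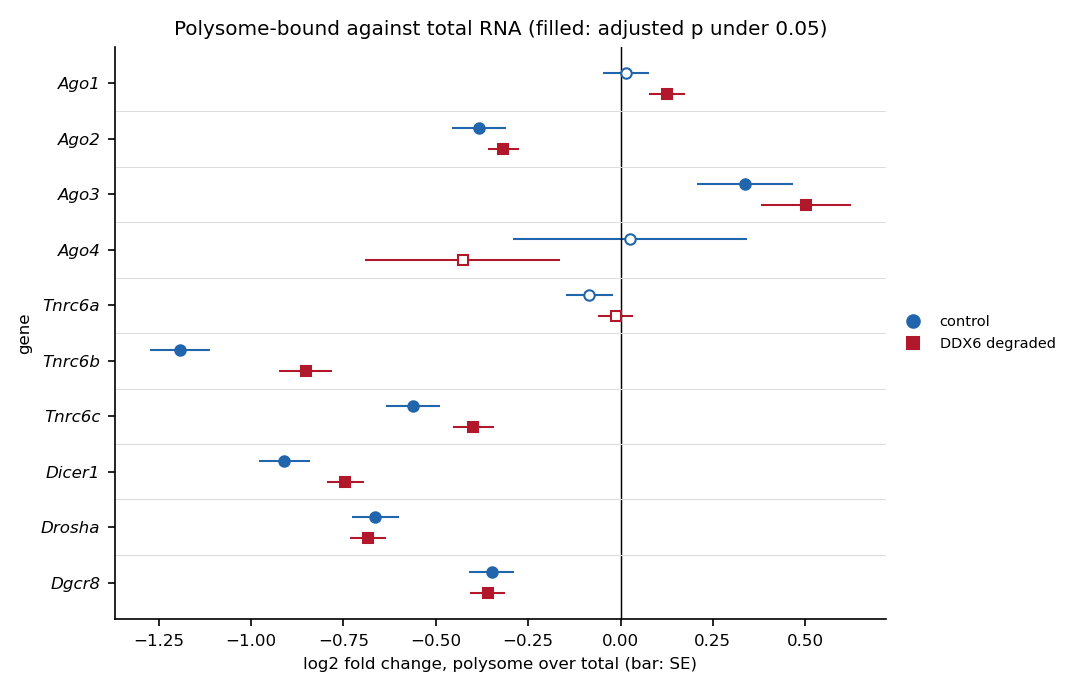
Log2 fold change of polysome-bound over total RNA (horizontal axis, bars are standard errors, filled symbols for an adjusted p under 0.05) for each gene in control and DDX6-degraded ES cells, 3 libraries of each kind. Tnrc6b lies at -1.19 and -0.85, and Tnrc6a near 0 in both.

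Among the Argonaute genes, Ago2 was lower in polysomes, at 157, 142 and 138 CPM in control total RNA and 123, 111 and 103 CPM in polysomes (-0.38 ± 0.073, adjusted p = 0.00042). Ago3 was higher, at 7.31, 7.27 and 5.89 CPM and 9.4, 8.48 and 8.12 CPM (0.34 ± 0.13, adjusted p = 0.046), but DESeq2 did not call it (adjusted p = 0.065) and no call remained after leaving out any 1 of the 6 libraries (adjusted p from 0.054 to 0.18). After DDX6 loss the Ago3 difference was 0.50 ± 0.12 (adjusted p = 0.0013) and held under every alternative. Ago1 was called only in DDX6-degraded cells and by a small margin (0.13 ± 0.048, adjusted p = 0.033), lost in 4 of 6 fits that left out a library (replicates 2 and 3 of the polysomes, replicates 1 and 2 of the total RNA, adjusted p up to 0.20). Ago4 was at 0.661 to 1.52 CPM in these libraries. Tnrc6c was lower in polysomes of both conditions (-0.56 ± 0.073 and -0.40 ± 0.056).

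The change of occupancy on loss of DDX6 was tested directly. None of the 10 was called, as was 0% of all genes by edgeR, with 844 genes at an unadjusted p under 0.05 and 4 genes called by DESeq2. Tnrc6b had the largest positive change, 0.34 ± 0.11 (unadjusted p = 0.0067 in the edgeR model, adjusted p = 0.88). Total RNA gave 0 called of 10 as well, with 3.31% of all genes called, and 5 of the 10 at an unadjusted p under 0.05. Dgcr8 was at -0.21 ± 0.058 (adjusted p = 0.067), Tnrc6b at -0.28 ± 0.079 (adjusted p = 0.073) and Dicer1 at -0.22 ± 0.066 (adjusted p = 0.088). DESeq2 called those 3 lower (adjusted p = 0.028, 0.037 and 0.040). Without replicate 3 of the control total RNA 5 of the 10 were called lower, the others being Ago2 (-0.20, adjusted p = 0.0076) and Drosha (-0.22, adjusted p = 0.0030).

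Genes that work with this machinery were followed as a list of 26 partners in 4 roles, nuclear maturation and export, loading, turnover, and effector complexes. In naive ES cells 12 of 26 were higher in P-bodies (22.6% of all genes) and 5 lower (15.4%), with a median log2 difference of 0.21 against -0.059 over all genes. The 6 turnover genes had the highest median of the 4 roles, with 4 higher and 1 lower and a median of 2.05, while in MEFs 4 of the 5 tested were lower (median -0.81). Lin28b, an RNA-binding protein that blocks let-7 maturation, was the highest partner (3.64 ± 0.17, adjusted p = 0.00041), and Khsrp, a splicing and hairpin-processing factor, the lowest (-1.25 ± 0.17, adjusted p = 0.0038). Khsrp was also the lowest called partner in primed ES cells (-1.13 ± 0.083), day 3 control cells (-1.11 ± 0.13), Nudt21 knockdown cells (-1.30 ± 0.15) and the Ago2 KO (-1.31 ± 0.30).

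Primed ES cells had 9 partners higher (26.5% of all genes) and 11 lower (24.2%), with Wtip, a LIM-domain protein of the Ajuba family, the highest (2.40 ± 0.19), and MEFs had 9 higher (26.6%) and 14 lower (28.7%) of 25 tested, with Wtip again the highest (1.71 ± 0.22) and Xpo5, the hairpin export receptor, the lowest (-1.28 ± 0.097). Day 3 control cells had none higher (0.196%) and 1 lower (0.45%) of 24 tested. Nudt21 knockdown cells had 2 higher (9.04%), led by Ran (0.44 ± 0.084), and 10 lower (12.8%) of 25, and the Ago2 KO none higher (5.47%) and 1 lower (1.05%) of 26. Enrichment of Lin28b was greater in naive than in primed ES cells (3.08 ± 0.16, adjusted p = 6.9e-05). Against MEFs the fitted difference was positive (adjusted p = 8.4e-05), but its size cannot be given, since Lin28b was covered by just 2 and 1 reads in sorted MEF particles and by 7 and 15 in MEF cytoplasm. Enrichment of Wtip was lower in naive ES cells than in primed ES cells and MEFs (-2.72 ± 0.51 and -2.07 ± 0.47). Tut7, a uridylyl transferase, had the greatest gain from MEFs to day 3 control cells (1.15 ± 0.18, adjusted p = 0.0037), and Wtip the greatest loss (-1.72 ± 0.36). In polysomes 17 of 26 partners were lower in control cells (24.1% of all genes) and 17 in DDX6-degraded cells (26.8%), with the chaperone gene Hsp90aa1 the lowest in each (-2.20 ± 0.094 and -2.23 ± 0.059). The highest was Ptges3, a chaperone cofactor, in control cells (0.32 ± 0.061) and Lin28b after DDX6 loss (0.51 ± 0.15).

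Over the 20 P-body and cytoplasm libraries, the genes whose log2 levels ran most nearly parallel to Ago2 among 10260 genes with a mean of at least 10 CPM were Elmsan1 (Pearson r = 0.951), Tbc1d1 (0.937) and Cbl (0.92). Those nearest to Dicer1 were Atg2b (0.934), Htt (0.923) and Lrp6 (0.92). The libraries share cell kinds and fractions in pairs, so these values describe the set of libraries.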

How the data were processed

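Reads of 20 libraries (sorted particles and cytoplasm) were aligned by the authors to mm10 with HISAT2 and counted with featureCounts against refGene. The deposited values are fractional read counts, of which 17.6% to 25.7% were not whole. For polysome, total and Ago2 KO libraries the deposited expected counts came from salmon. The authors' 10 comparison tables, which hold DESeq2 fold changes and p-values, were not used. Counts were rounded to whole numbers. Each of 18 comparisons was fitted with edgeR 4.0.16 (R 4.3.3), quasi-likelihood test, two-sided, TMM scaling, after removing genes whose reads in its libraries added up to fewer than 10, with Benjamini-Hochberg adjustment over all genes tested. SE is the log2 fold change divided by the square root of F. DESeq2 1.42.0 was an alternative, as were other scaling, filters, a replicate block, a fit over all groups and leaving out each library. The code was tested on simulated data. Transcript lengths and 3′ UTRs came from the longest coding transcript in GENCODE M21 and microRNA sequences from RefSeq, read with Python 3.11.15. Named partners were the called one highest and the called one lowest in each P-body, enrichment-difference and polysome comparison. The members and lists were chosen with earlier results of these data known. The methods call the replicates biological, and p-values measure only the spread between them. Replicate pairs differed by more than sampling noise (chi-square per degree of freedom 1.78 to 306 over 24 pairs). Unused columns of values numbered 0.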

Additional observations from a re-analysis of the deposited data

Results flagged for a closer look

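Differences in P-body enrichment between cell types were flagged by the interaction test. Naive minus primed ES cells gave log2 differences of 1.1 for Ago2, 1.72 for Ago3, 1.64 for Tnrc6a, 1.56 for Tnrc6b and 0.62 for Dicer1. Naive ES cells minus MEFs gave 1.6 for Ago2, 1.40 for Ago3, 2.41 for Tnrc6a, 2.67 for Tnrc6b, 0.60 for Dicer1, 1.01 for Drosha and 0.54 for Dgcr8. Each is positive, so enrichment was greater in naive ES cells, and both sets share the naive libraries. No group had the 4 samples that a search for single outlying samples needs.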

How the results depend on the processing

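Of 76 calls on single genes, 56 held under every alternative run and 71 under every one that kept all libraries, and no result changed sign past the threshold. The number of the 10 genes called moved most in day 3 control P-bodies, from 1 to 4 by DESeq2, 4 with no filter, 5 with all groups in a shared fit and 2 with the replicate block, and leaving out 1 library gave 0 to 7. In the Ago2 KO it moved from 1 to 3 with no filter and 6 with the replicate block, and to between 1 and 6 without 1 library. Day 3 control minus MEF enrichment went from 0 to 1 (Dicer1) by DESeq2, with filterByExpr, with no filter and with the replicate block, and to between 0 and 2 without 1 library. Total RNA after DDX6 loss went from 0 to 3 by DESeq2, 2 with no filter and 3 with all groups in a shared fit, and to between 0 and 5 without 1 library. Leaving out 1 library gave 2 to 6 called in knockdown P-bodies (5 with all), 0 to 4 for knockdown minus control enrichment (0) and 1 to 8 for naive minus primed cytoplasm (5). The cause was not tested. Same-numbered libraries did not deviate together in every group (r from -0.0752 in naive ES cells to 0.655 in the Ago2 KO over the P-body comparisons, 2 pairs each), and although the cytoplasm was set aside from the fraction that was sorted, no label says that equal numbers mark it, so the numbers were not taken as pairs. With the replicate block the KO calls were 3 higher (Tnrc6a, Ago3, Tnrc6b) and 3 lower (Ago1, Dicer1, Dgcr8). Besides the KO and the day 3 control results given above, the replicate block moved no count by over 1.5 times. Over all genes, day 3 control P-bodies had 102 calls, against 2105 by DESeq2, 202 with filterByExpr, 1940 with no filter, 802 with the replicate block and 3308 with all groups in a shared fit. The Ago2 KO had 1095, against 1731 by DESeq2, 716 with DESeq2 size factors, 2643 with no filter, 4178 with the replicate block and 695 without rRNA-like and mitochondrial genes. With all groups in a shared fit, primed P-bodies went from 8209 to 5128, knockdown P-bodies from 3501 to 2100 and the knockdown cytoplasm from 7934 to 4877. Knockdown minus control enrichment had 2, against 26 by DESeq2, 62 with no filter and 1 with the replicate block. The occupancy change had 0, against 4, 16 and 6 in the same order, and total RNA after DDX6 loss 509, against 832, 863 and 82, with 1138 in the shared fit. No shared fit was run for the Ago2 KO, whose table holds 2 groups, or for the occupancy change, which already uses every group. With 2 libraries a group, a single library decides many calls.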
